A study of Homo sapiens with 18 samples.

Results

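The genes described here are 10 listed together under feedback inhibitors of receptor tyrosine kinase signalling, a role not tested for any of them here. They are SPRY1, SPRY2, SPRY4, SPRED1, SPRED2, SPRED3, ERRFI1, LRIG1, LRIG3 and RASD1. They were taken by name, through the Ensembl identifier of each symbol, from a gene count table of 58395 rows. The 10 were chosen with earlier results of these data known. Each of the 10 had 1 row, and all 10 passed the filter on low counts and were among the 16794 genes tested. The cells were BxPC-3, an established human pancreatic adenocarcinoma line kept in medium with fetal bovine serum. The labels do not say whether serum was present during treatment. They received hepatocyte growth factor (HGF, 80 ng/ml), macrophage-stimulating protein (MSP, 100 ng/ml) or phosphate-buffered saline as the vehicle, and total RNA was taken after 1 h or after 4 h. There were 3 libraries for each treatment at each time, 18 in all. The series compares the HGF and MET system with the MSP and RON system.

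HGF activates the receptor tyrosine kinase MET, and MSP activates its relative RON, the product of MST1R. Active receptors switch on RAS, and RAS starts the RAF, MEK and ERK kinase cascade, which in turn switches on genes whose products damp the same route. Sprouty proteins, first found in Drosophila, sit at the membrane and block the step between receptor and ERK, and Spred proteins are relatives that bring neurofibromin to RAS. ERRFI1, also called MIG6, binds and inhibits the kinase domain of EGFR. LRIG1 is a transmembrane protein that lowers the amount of ERBB receptors, and LRIG3 is its relative. RASD1 is a small GTPase of the RAS family, first found as a gene induced by dexamethasone, and belongs to none of these families.

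The promoters of the 3 genes with the largest rises after 1 h of HGF (RASD1, ERRFI1 and SPRY4) and of the 1 gene with the largest fall (SPRY1) are shown, because these members moved together or in opposition. Each is the 250 bases before an annotated start, from RefSeq on GRCh38.p14, read 5′ to 3′ on the gene's strand. Capitals mark GGGCGG or its reverse complement.
RASD1, chr17:17496396-17496645, minus strand: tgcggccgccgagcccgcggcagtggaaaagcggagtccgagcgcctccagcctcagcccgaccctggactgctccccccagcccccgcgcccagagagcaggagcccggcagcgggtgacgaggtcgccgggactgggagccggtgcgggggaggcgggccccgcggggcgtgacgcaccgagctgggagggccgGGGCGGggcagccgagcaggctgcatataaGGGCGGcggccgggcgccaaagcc
ERRFI1, chr1:8026310-8026559, minus strand: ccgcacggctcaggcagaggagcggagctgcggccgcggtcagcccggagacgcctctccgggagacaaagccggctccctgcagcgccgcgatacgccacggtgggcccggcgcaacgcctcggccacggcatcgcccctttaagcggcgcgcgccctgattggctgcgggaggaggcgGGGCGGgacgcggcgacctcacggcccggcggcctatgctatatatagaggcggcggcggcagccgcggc
SPRY4, chr5:142324248-142324497, minus strand: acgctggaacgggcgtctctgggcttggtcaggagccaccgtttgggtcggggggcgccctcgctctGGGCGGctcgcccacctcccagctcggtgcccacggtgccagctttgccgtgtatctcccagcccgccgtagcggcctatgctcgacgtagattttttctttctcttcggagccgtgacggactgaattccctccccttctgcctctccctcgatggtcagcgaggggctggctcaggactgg
SPRY1, start 1, chr4:123396545-123396794, plus strand: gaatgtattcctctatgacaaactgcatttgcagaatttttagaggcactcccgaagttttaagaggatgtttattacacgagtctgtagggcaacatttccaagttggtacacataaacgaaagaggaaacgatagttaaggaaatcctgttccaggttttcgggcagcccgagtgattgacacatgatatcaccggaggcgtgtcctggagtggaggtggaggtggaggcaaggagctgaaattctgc
SPRY1, start 2, chr4:123398136-123398385, plus strand: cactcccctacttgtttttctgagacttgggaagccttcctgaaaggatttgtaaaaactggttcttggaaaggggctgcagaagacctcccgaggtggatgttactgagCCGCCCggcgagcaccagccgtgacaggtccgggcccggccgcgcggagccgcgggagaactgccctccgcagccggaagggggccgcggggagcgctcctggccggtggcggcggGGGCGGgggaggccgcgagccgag
The windows differ in base composition. GC content was 78% for RASD1, 75.2% for ERRFI1 and 65.6% for SPRY4, against a median of 58% over 34943 promoter windows of the same length. SPRY1 had 45.6% GC at its first start and 68% at its second. GGGCGG was found on either strand 2 times for RASD1, 1 time for ERRFI1, 1 time for SPRY4 and 2 times at the second start of SPRY1, and not in the window of its first start. Of all windows, 42.5% held this motif. CCGGAAG, present in 8.48% of all windows, was found 1 time, at the second start of SPRY1. TGACGTCA (1.63% of all windows), TGANTCA (6.59%), GCGTGGGCG (0.721%), TATAAA (10.8%) and the CArG box (1.16%), each searched on both strands, were not among the letters of these 5 windows. The RefSeq start used for SPRY4 lies inside the gene as GENCODE 29 draws it.

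Total counts per library ranged from 30556613 to 48477215. Levels are CPM, counts relative to library size after scaling by TMM factors, with 3 libraries a group. Log2 fold changes come with their standard error (SE) and an adjusted p from the quasi-likelihood test of edgeR, adjusted by Benjamini-Hochberg over all genes tested. The labels speak of triplicates and name no separate cultures, and the p-values therefore reflect the spread between libraries alone, which may be technical. The 6 ductal epithelium markers (KRT19, KRT7, KRT8, KRT18, EPCAM and CDH1) were all expressed, summing to 6231 to 6549 CPM with HGF at 1 h and 7135 to 7685 CPM with HGF at 4 h, against 5096 to 5362 CPM with vehicle at 1 h and 5538 to 5760 CPM with vehicle at 4 h. Summed levels were at most 13.6 CPM for 5 fibroblast markers, 3.13 CPM for 5 leukocyte markers and 8.97 CPM for 4 endothelium markers, of which KDR had no count in any library. The endothelium sum was 2.84 to 3.35 CPM with HGF at 4 h, against 7.26 to 7.85 CPM with vehicle. TMM factors were 0.842 to 0.860 for HGF at 4 h and 0.980 to 0.985 for HGF at 1 h, against 1.03 to 1.07 in the other groups. The share of counts from mitochondrial genes was 6.11% to 6.22% with HGF at 4 h, against 8.73% to 8.98% with vehicle at 4 h. The part of these differences in the results was not tested.

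After 1 h of HGF, 5 of the 10 genes rose and 2 fell. The rises were those of RASD1, ERRFI1, SPRY4, SPRED3 and SPRY2, and the falls those of SPRY1 and LRIG3. Of all genes tested, 21% were called in this comparison, 13.8% as higher and 7.16% as lower. Scaled by library totals instead, 9.07% of all genes were called higher and 21.4% lower, and the 10 genes still split 5 and 2. The median log2 fold change was 0.58 over the 10 genes and 0.00 to 2 decimals over all genes tested. In bulk RNA, a change in the number of cells that express a gene and a change in RNA per cell cannot be told apart.

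RASD1 had 93.3, 92.6 and 91.7 CPM with HGF at 1 h, 8.19, 8.06 and 8.57 CPM with MSP, and 3.03, 3.68 and 2.68 CPM with vehicle. The 3 groups did not overlap, and vehicle libraries were lowest. RASD1 rose by 4.88 on the log2 scale with HGF (SE 0.09, adjusted p = 1.24e-27), or 29.5-fold. This ranked 9 from the top of the 16794 genes tested. RASD1 rose with MSP too, by 1.40 on the log2 scale (SE 0.10, adjusted p = 6.66e-11), or 2.64-fold.

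At 4 h RASD1 had 34.4, 40.0 and 35.5 CPM with HGF, 2.62, 3.70 and 2.89 CPM with MSP, and 2.53, 2.88 and 2.47 CPM with vehicle. HGF libraries were still far above the rest, whereas MSP and vehicle libraries overlapped. The log2 fold change of HGF against vehicle was 3.80 (SE 0.10, adjusted p = 2.45e-24), or 13.9-fold. For MSP it was 0.21 (SE 0.13, adjusted p = 0.578).

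ERRFI1 had the highest level of the 10 genes in every group, on a scale of CPM per kilobase of exon. In CPM, it had 950.0, 904 and 895 with HGF at 1 h, 207, 220.2 and 198 with MSP, and 124, 138 and 129 with vehicle. HGF libraries stood highest, MSP libraries lay between, and no group overlapped another. ERRFI1 rose by 2.81 on the log2 scale with HGF (SE 0.05, adjusted p = 9.40e-29) and by 0.68 with MSP (SE 0.05, adjusted p = 8.71e-12).

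At 4 h ERRFI1 had 496, 499 and 518 CPM with HGF, 104, 109 and 104 CPM with MSP, and 96.4, 96.6 and 91.3 CPM with vehicle. Every MSP library was above every vehicle library, by a margin that missed the threshold. HGF gave a log2 fold change of 2.41 (SE 0.05, adjusted p = 3.91e-27) and MSP one of 0.16 (SE 0.05, adjusted p = 0.109). Whether the counting used strand is not stated in the labels, so reads of an antisense gene over 155 exon bases (3.7%) of ERRFI1, AL034417.4, cannot be told apart from its own. That gene was at 0.248 CPM with HGF at 1 h and 0.139 CPM with vehicle. At 4 h AL034417.4 was at 0.404 CPM with HGF and 0.169 CPM with vehicle, a log2 fold change of 1.22 (adjusted p = 0.0352).

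**Figure D1:**
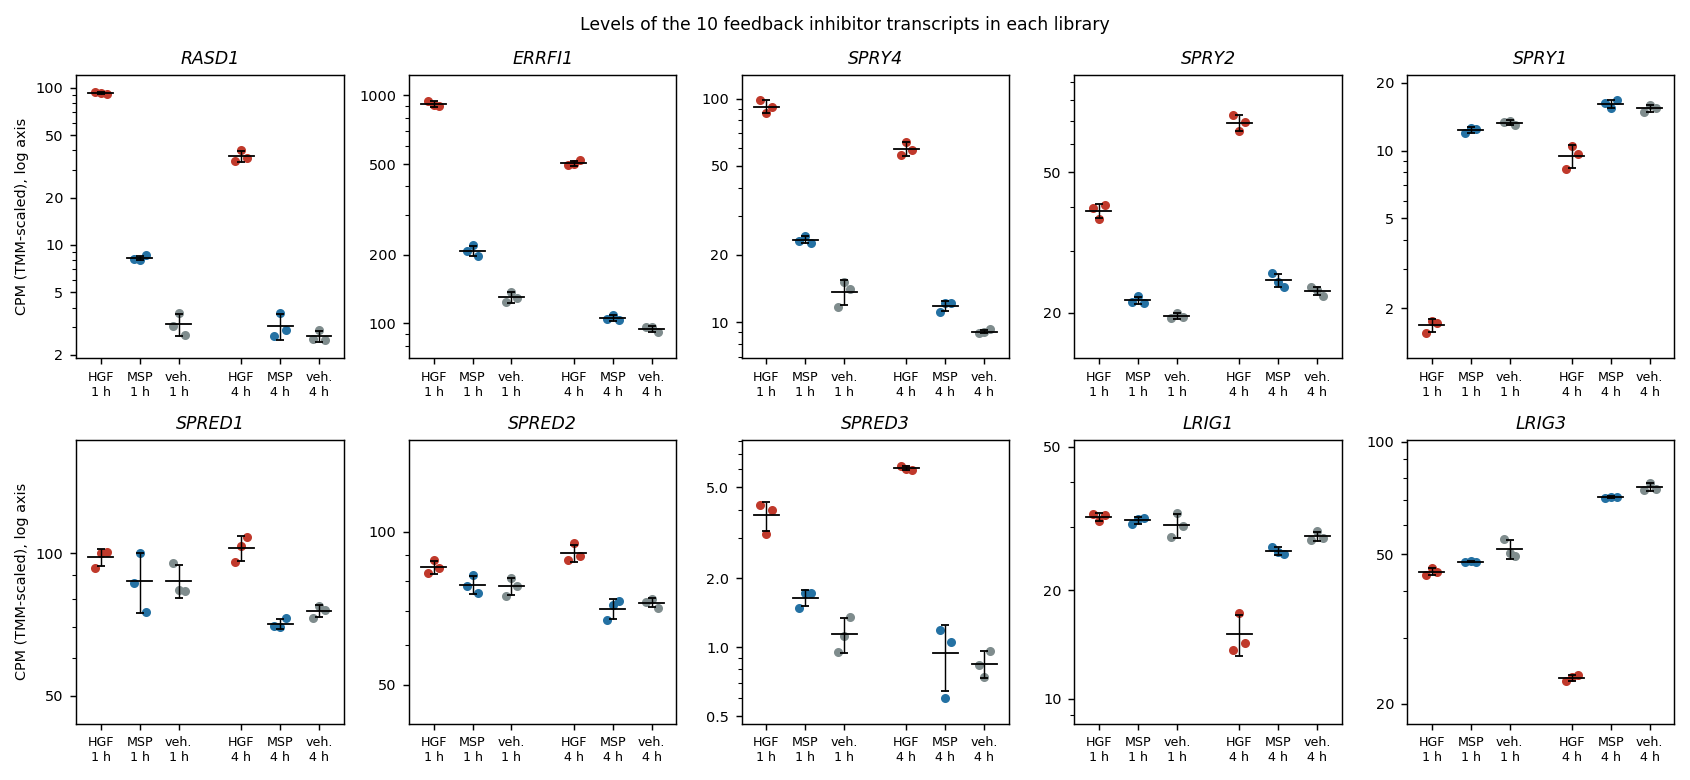
CPM on a log axis for each of the 10 genes, with 1 point per library, a line for the mean and bars for the SD (n = 3), and HGF, MSP and vehicle from left to right at each time. RASD1, ERRFI1 and SPRY4 stand highest with HGF at both times, SPRY1 is lowest with HGF at 1 h, and LRIG1 and LRIG3 are lowest with HGF at 4 h.

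The Sprouty genes moved in opposite directions after HGF. SPRY4 and SPRY2 rose at both times, SPRY1 fell at both times, and SPRY3, which is not among the 10, passed the threshold at neither. SPRY4 had 98.6, 86.5 and 91.6 CPM with HGF at 1 h, 23.1, 24.4 and 22.7 CPM with MSP, and 11.7, 15.1 and 14.1 CPM with vehicle. As for ERRFI1, MSP libraries lay between HGF and vehicle libraries without overlap. It rose with both ligands, at a log2 fold change of 2.76 (SE 0.07, adjusted p = 4.42e-24) for HGF and 0.78 (SE 0.07, adjusted p = 1.42e-08) for MSP. At 4 h SPRY4 had 56.0, 64.1 and 59.0 CPM with HGF, 11.1, 12.2 and 12.2 CPM with MSP, and 8.96, 9.01 and 9.28 CPM with vehicle. Levels in every group were lower than at 1 h, and the groups were again apart. Log2 fold changes were 2.72 (SE 0.08, adjusted p = 1.80e-23) for HGF and 0.38 (SE 0.08, adjusted p = 0.0202) for MSP. That last call was lost when any 1 of 5 of the 6 libraries compared was left out, at adjusted p = 0.0513 to 0.167. Those were each vehicle library and MSP replicates 2 and 3, and the log2 fold change then stayed between 0.35 and 0.40.

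SPRY2, which binds the ubiquitin ligase CBL, had 39.6, 37.0 and 40.3 CPM with HGF at 1 h, 21.4, 22.3 and 21.3 CPM with MSP, and 19.3, 20.04 and 19.5 CPM with vehicle. HGF libraries had about 2 times the vehicle level, and MSP libraries sat just above vehicle. SPRY2 had a log2 fold change of 0.99 (SE 0.06, adjusted p = 2.93e-15) for HGF and 0.14 (SE 0.06, adjusted p = 0.496) for MSP. At 4 h SPRY2 had 72.8, 65.6 and 69.2 CPM with HGF, 25.9, 24.5 and 23.7 CPM with MSP, and 23.6, 23.2 and 22.3 CPM with vehicle. HGF libraries were higher than at 1 h. Against vehicle, the log2 fold change was 1.59 (SE 0.06, adjusted p = 3.30e-21) for HGF and 0.10 (SE 0.06, adjusted p = 0.521) for MSP.

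SPRY1 had 1.56, 1.76 and 1.72 CPM with HGF at 1 h, 11.9, 12.6 and 12.5 CPM with MSP, and 13.4, 13.6 and 12.9 CPM with vehicle. HGF libraries were far below all others. SPRY1 fell with HGF, at a log2 fold change of -2.98 (SE 0.10, adjusted p = 5.69e-21), the fifth lowest of the 16794 genes tested. MSP gave a log2 fold change of -0.11 (SE 0.08, adjusted p = 0.812). At 4 h SPRY1 had 8.30, 10.4 and 9.69 CPM with HGF, 16.2, 15.4 and 16.7 CPM with MSP, and 14.8, 15.9 and 15.4 CPM with vehicle. HGF libraries were still below vehicle libraries, by a smaller margin. It fell by 0.70 on the log2 scale with HGF at that time (SE 0.08, adjusted p = 7.54e-09), and the value with MSP was 0.06 (SE 0.08, adjusted p = 0.818).

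Per kilobase of exon, the 4 Sprouty genes together had 27.5 ± 1.42 CPM per kb with HGF at 1 h and 12.1 ± 0.39 CPM per kb with vehicle (SD, n = 3 each). At 4 h the sum was 34.5 ± 0.27 CPM per kb with HGF and 13.1 ± 0.20 CPM per kb with vehicle. SPRY1 made up 1.55% ± 0.17 of this sum with HGF at 1 h, 22.2% ± 0.55 with MSP, and 27.7% ± 0.95 with vehicle. Its share was 6.94% ± 0.84 with HGF at 4 h, 28.5% ± 1.05 with MSP, and 29.7% ± 0.98 with vehicle. The summed Sprouty level was thus higher with HGF while 1 of its parts was lower. SPRY4 made up 51.0% of the sum with HGF at 1 h, 25.3% with MSP and 17.1% with vehicle. At 4 h SPRY2 made up most of it in every group, 66.1% with HGF, 57.2% with MSP and 58.1% with vehicle. These shares do not depend on how libraries are scaled. They do depend on the length used for each gene, here all its GENCODE 29 exons merged, as does any order of genes per kilobase.

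**Figure D2:**
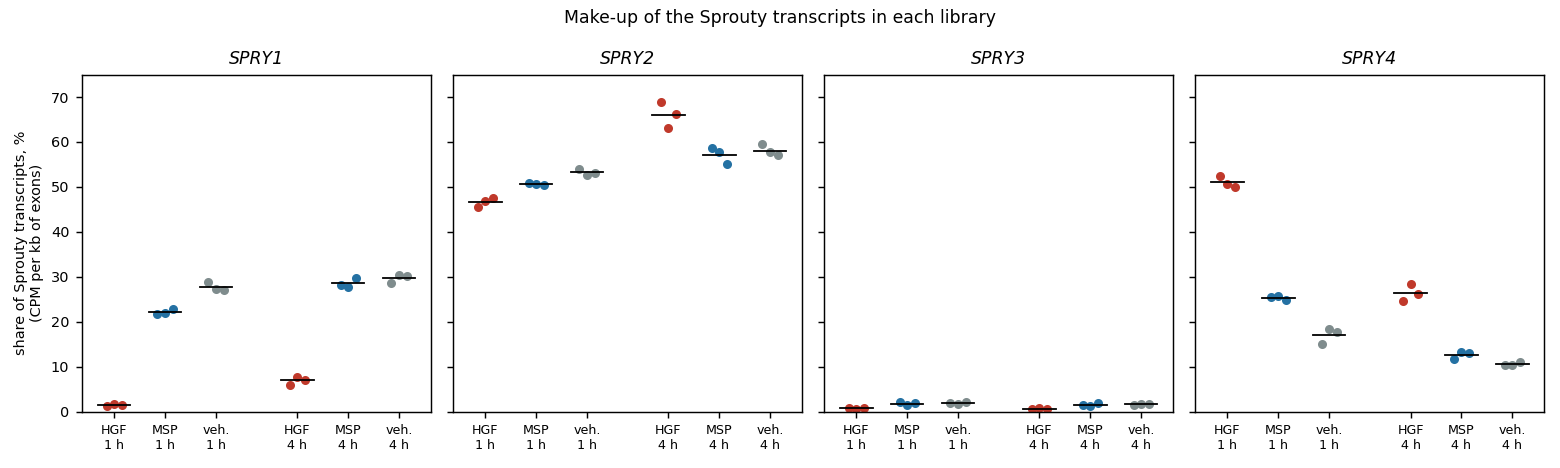
Share of each Sprouty gene in the summed Sprouty level (CPM per kilobase of exon, in percent), with 1 point per library and a line for the mean of 3 libraries, and HGF, MSP and vehicle from left to right at each time. SPRY1 held 1.55% of the sum with HGF at 1 h, against 27.7% with vehicle, and SPRY4 held 51.0%, against 17.1%.

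SPRED3 was the low-level Spred gene and the one that moved most. It had 4.17, 3.14 and 4.00 CPM with HGF at 1 h, 1.49, 1.72 and 1.72 CPM with MSP, and 0.951, 1.12 and 1.35 CPM with vehicle. Every MSP library was above every vehicle library, but only HGF passed the threshold, with a log2 fold change of 1.72 (SE 0.18, adjusted p = 3.92e-09) against 0.51 (SE 0.19, adjusted p = 0.434) for MSP. At 4 h it had 6.20, 6.03 and 5.97 CPM with HGF, 1.19, 0.602 and 1.05 CPM with MSP, and 0.834, 0.743 and 0.965 CPM with vehicle. MSP and vehicle libraries overlapped. Against vehicle, HGF gave a log2 fold change of 2.83 (SE 0.19, adjusted p = 2.41e-14). For MSP it was 0.18 (SE 0.23, adjusted p = 0.836).

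SPRED1 and SPRED2, expressed at higher levels than SPRED3 per kilobase of exon, differed less between groups. SPRED1 had 93.2, 100.1 and 100.4 CPM with HGF at 1 h, 86.6, 100.2 and 75 CPM with MSP, and 95.4, 83.4 and 83.2 CPM with vehicle. All groups overlapped, and the MSP libraries were the most spread. For HGF the log2 fold change was 0.17 (95% interval 0.00 to 0.33, adjusted p = 0.15). SPRED1 was called higher in 3 of 13 alternatives, at adjusted p = 0.0177 to 0.0478. These were no filter, only the groups compared, and leaving out vehicle replicate 1. With library totals the value was 0.065 (adjusted p = 0.53). At 4 h SPRED1 had 95.9, 103 and 108 CPM with HGF, 70.1, 69.9 and 72.8 CPM with MSP, and 73.0, 77.4 and 76.0 CPM with vehicle. The HGF libraries were the highest, and SPRED1 rose by 0.44 on the log2 scale (SE 0.08, adjusted p = 5.22e-05).

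SPRED2 had 82.8, 87.9 and 84.8 CPM with HGF at 1 h, 78.3, 82.2 and 75.8 CPM with MSP, and 74.9, 81.1 and 78.3 CPM with vehicle. HGF libraries were the highest at a small margin, with a log2 fold change of 0.13 (95% interval 0.03 to 0.22, adjusted p = 0.0545). With library totals the value was 0.02 (adjusted p = 0.742), and HGF and vehicle libraries overlapped. At 4 h it had 88.2, 94.9 and 89.6 CPM with HGF, 67.0, 71.8 and 73.0 CPM with MSP, and 72.8, 73.8 and 70.9 CPM with vehicle. HGF libraries were again highest, and SPRED2 rose by 0.33 on the log2 scale (SE 0.05, adjusted p = 4.28e-07). Both rises at 4 h depend on the scaling. When scaled by library totals the log2 fold change was 0.15 (adjusted p = 0.07) for SPRED1 and 0.04 (adjusted p = 0.506) for SPRED2, while the median of all genes tested moved to -0.35, against -0.06 with TMM factors.

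LRIG3 and LRIG1 fell late. LRIG3 had 44.0, 46.1 and 44.9 CPM with HGF at 1 h, 47.8, 48.0 and 47.6 CPM with MSP, and 55.0, 50.4 and 49.5 CPM with vehicle. HGF libraries were below vehicle libraries by a small margin, a log2 fold change of -0.20 (SE 0.05, adjusted p = 0.00189). At 4 h it had 23.0, 23.5 and 23.8 CPM with HGF, 70.6, 71.3 and 71.3 CPM with MSP, and 74.3, 77.7 and 74.6 CPM with vehicle. HGF libraries were then 3.22-fold below vehicle. LRIG3 had a log2 fold change of -1.69 (SE 0.05, adjusted p = 4.36e-23) for HGF and -0.09 (SE 0.05, adjusted p = 0.455) for MSP.

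LRIG1 had 32.6, 31.1 and 32.3 CPM with HGF at 1 h, 30.5, 31.6 and 31.7 CPM with MSP, and 28.1, 32.7 and 30.2 CPM with vehicle. The groups overlapped, and the log2 fold change of HGF was 0.08 (95% interval -0.06 to 0.21, adjusted p = 0.473), or -0.02 with library totals. At 4 h it had 13.7, 17.3 and 14.3 CPM with HGF, 26.4, 25.5 and 25.2 CPM with MSP, and 27.6, 29.2 and 27.9 CPM with vehicle. LRIG1 fell with HGF, by 0.91 on the log2 scale (SE 0.07, adjusted p = 1.74e-12). With MSP every library was below every vehicle library, at a log2 fold change of -0.14 (SE 0.07, adjusted p = 0.414). Exons of SLC25A26 lie on the opposite strand over 12.9% of LRIG1 exon bases, so some reads may belong to that gene. SLC25A26 itself was at 15.5 CPM with HGF at 4 h and 16.5 CPM with vehicle, a log2 fold change of -0.09 (adjusted p = 0.255).

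LRIG2, the third gene of the family and not among the 10, had 18.1, 19.6 and 19.0 CPM with HGF at 1 h, 28.4, 33.0 and 27.8 CPM with MSP, and 29, 31.5 and 32.8 CPM with vehicle. It fell at 1 h, by 0.72 on the log2 scale (SE 0.07, adjusted p = 6.87e-10). Its value at 4 h was -0.11 (SE 0.07, adjusted p = 0.156), and -0.40 (adjusted p = 5.77e-06) with library totals. The difference between the HGF effects at 4 h and 1 h was 0.61 (SE 0.10, adjusted p = 3.25e-06).

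At 4 h of HGF, then, 7 of the 10 genes were called higher and 3 lower. That is to be read against 67.9% of all genes tested called in this comparison, 33.1% as higher and 34.8% as lower. With library totals 21.2% of all genes were called higher and 52% lower, and 5 of the 10 were higher and 3 lower. The median log2 fold change was 1.01 over the 10 genes and -0.06 over all genes tested. After MSP, 3 of the 10 rose at 1 h (RASD1, SPRY4 and ERRFI1), against 0.834% of all genes called, 0.78% as higher and 0.0536% as lower. At 4 h 1 of the 10 rose (SPRY4), against 1.07% of all genes called, 0.774% as higher and 0.292% as lower. None of the 10 was called lower with MSP by edgeR or by DESeq2 at either time, and 1 was lower at an unadjusted p under 0.05 at each. The median log2 fold change with MSP was 0.09 over the 10 genes at 1 h and 0.01 over all genes tested. The 2 ligands share their vehicle libraries at each time.

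**Figure D3:**
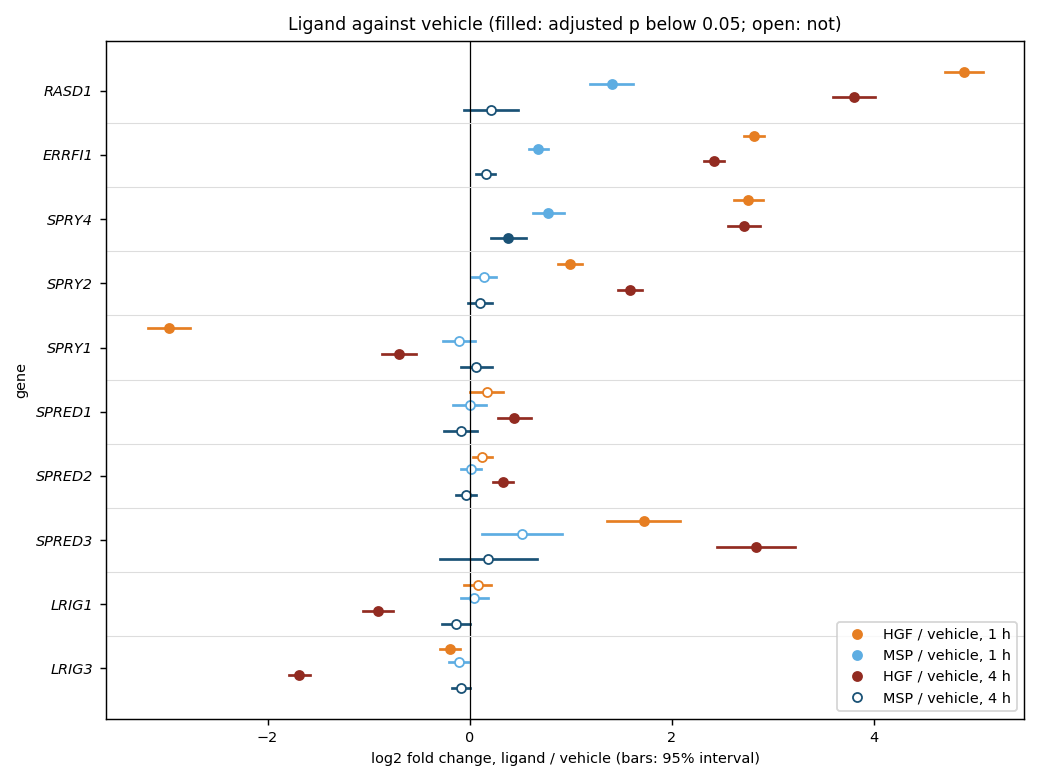
Log2 fold change against vehicle (horizontal axis) with its 95% interval for each of the 10 genes, in the order HGF at 1 h, MSP at 1 h, HGF at 4 h and MSP at 4 h from top to bottom, where filled points passed the adjusted p threshold of 0.05 and open points did not. HGF spans -2.98 to 4.88 at 1 h, and the largest value for MSP is 1.40, that of RASD1.

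Set against MSP directly, HGF gave higher levels of 5 genes and a lower level of 1 at 1 h. The background for this comparison was 17.7% of all genes called, 11.4% as higher and 6.36% as lower. With library totals those shares were 7.72% and 18.5%, and LRIG3 was also called lower with HGF (adjusted p = 0.00314). The 5 were RASD1, with a log2 difference of 3.48 (SE 0.08), ERRFI1 at 2.14, SPRY4 at 1.98, SPRED3 at 1.21 and SPRY2 at 0.85. SPRY1 was lower with HGF, by 2.87 on the log2 scale (SE 0.10). Each of the 6 had an adjusted p of 1.37e-06 or less in edgeR's quasi-likelihood test. When MSP replicate 2 at 1 h was left out, SPRED1 (adjusted p = 0.00152) and SPRED2 (adjusted p = 0.0453) were also called higher. Without the filter SPRED1 was called higher too (adjusted p = 0.0364). The 2 ligands were given at different concentrations, 80 ng/ml of HGF and 100 ng/ml of MSP, so a difference here is one between these treatments as given.

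At 4 h all 10 genes differed between HGF and MSP, 7 higher and 3 lower with HGF, where 66.4% of all genes were called, 32.7% as higher and 33.8% as lower. With library totals 19.8% of all genes were called higher and 53.4% lower. The log2 differences were 3.59 for RASD1, 2.65 for SPRED3, 2.34 for SPRY4, 2.26 for ERRFI1, 1.48 for SPRY2, 0.53 for SPRED1 and 0.37 for SPRED2. They were -1.60 for LRIG3, -0.77 for LRIG1 and -0.76 for SPRY1. SPRED2 lost its call with library totals, at adjusted p = 0.196.

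The effect of HGF differed between 4 h and 1 h for 9 of the 10 genes, and the exception was SPRY4. Of all genes tested, 53.2% differed in this way, 26.8% with a higher and 26.4% with a lower log2 fold change at 4 h. With library totals these were 18.6% and 37.9%. SPRY1 had the largest difference, 2.28 on the log2 scale (SE 0.13, adjusted p = 4.96e-15), from a fall that was smaller at 4 h. The log2 fold change was higher at 4 h by 1.11 for SPRED3 (SE 0.27, adjusted p = 0.000882), 0.59 for SPRY2 (SE 0.08, adjusted p = 1.70e-07), 0.28 for SPRED1 (SE 0.11, adjusted p = 0.0411) and 0.20 for SPRED2 (SE 0.07, adjusted p = 0.0115). With library totals the SPRED1 and SPRED2 differences were 0.09 and 0.01 and neither was called, and the SPRED1 call was also lost when any 1 of 8 libraries was left out, at adjusted p = 0.0514 to 0.104. Those were HGF replicates 1 and 2 and vehicle replicate 1 at 1 h, and HGF replicates 2 and 3 and all 3 vehicle replicates at 4 h.

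The induction of RASD1 and ERRFI1 was smaller at 4 h. The HGF effect changed by -1.09 for RASD1 (SE 0.15, adjusted p = 3.24e-07) and by -0.40 for ERRFI1 (SE 0.06, adjusted p = 3.45e-06). For SPRY4 the difference was -0.04 (95% interval -0.26 to 0.18, adjusted p = 0.773), while its level was lower at 4 h in every group. With library totals the SPRY4 difference was -0.23 (adjusted p = 0.0704). LRIG3 and LRIG1, with their later falls, differed by -1.49 (SE 0.07, adjusted p = 1.53e-17) and -0.98 (SE 0.10, adjusted p = 5.02e-10). For MSP the effect was smaller at 4 h for RASD1, by -1.19 (SE 0.17, adjusted p = 9.70e-05), and for ERRFI1, by -0.52 (SE 0.06, adjusted p = 1.25e-05). Those were 2 of 10 genes, against 0.322% of all genes tested, 0.0476% with a higher and 0.274% with a lower log2 fold change at 4 h. None of the 10 had a higher MSP effect at 4 h by edgeR, by DESeq2 or at an unadjusted p under 0.05. SPRY4 had a difference of -0.40 for MSP (SE 0.11, adjusted p = 0.163). Without the filter it was -0.39 and was called lower (adjusted p = 0.0298).

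**Figure D4:**
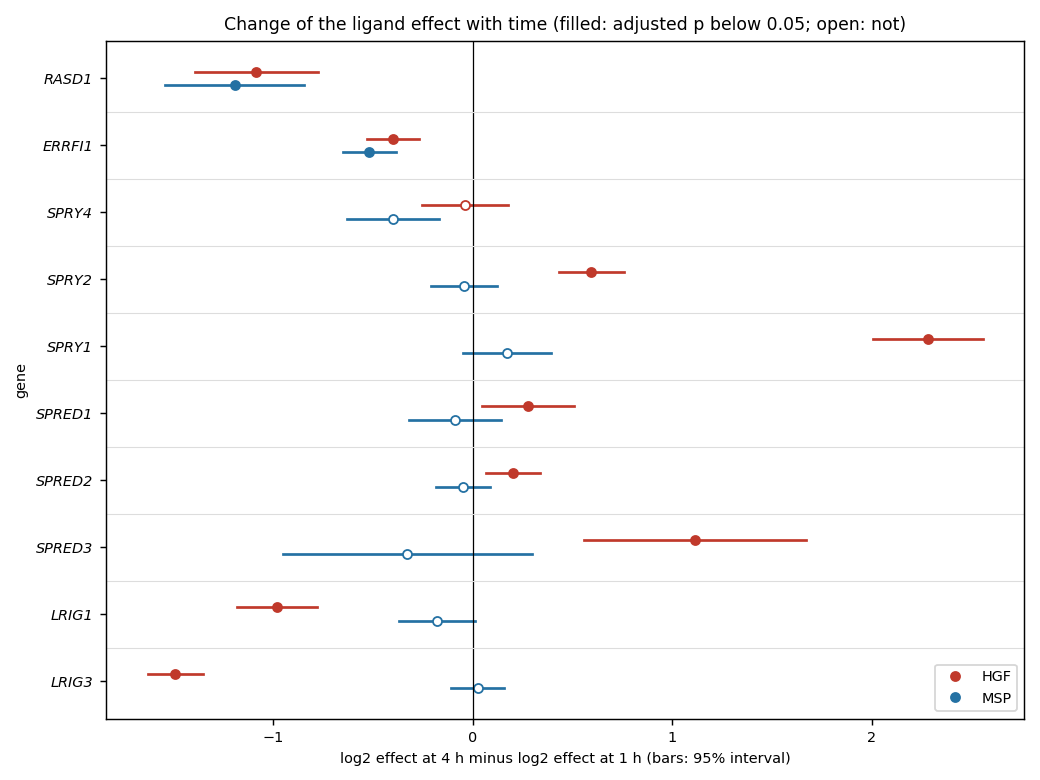
Log2 fold change against vehicle at 4 h minus that at 1 h (horizontal axis) with its 95% interval for each of the 10 genes, HGF above MSP, where filled points passed the adjusted p threshold of 0.05 and open points did not. RASD1 and ERRFI1 lie below 0 with both ligands, SPRY4 with HGF lies at -0.04, and SPRY1 with HGF lies farthest to the right at 2.28.

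In vehicle cells alone, 3 of the 10 genes were higher at 4 h than at 1 h and 2 were lower, where 20.9% of all genes were called, 10.9% as higher and 9.99% as lower. With library totals 8.77% of all genes were called higher and 12.2% lower, and 2 of the 10 were higher and 4 lower, since SPRY1 lost its call (adjusted p = 0.0768) and SPRED1 (adjusted p = 0.0271) and SPRED2 (adjusted p = 0.0431) were called lower. LRIG3 rose by 0.55 on the log2 scale (SE 0.05, adjusted p = 9.03e-10), SPRY2 by 0.23 (SE 0.06, adjusted p = 0.0045) and SPRY1 by 0.21 (SE 0.08, adjusted p = 0.0481). SPRY4 fell by 0.59 (SE 0.08, adjusted p = 9.09e-06) and ERRFI1 by 0.46 (SE 0.05, adjusted p = 3.41e-08). SPRED1, at a log2 fold change of -0.21 (adjusted p = 0.0638), was also called lower by DESeq2, without the filter, without robust estimation and with only the groups compared. The SPRY1 call was lost when any 1 of the 6 vehicle libraries was left out, at adjusted p = 0.0641 to 0.154. In HGF libraries LRIG3 was at 23.0 to 23.8 CPM at 4 h and 44.0 to 46.1 CPM at 1 h, the opposite order, and that pair of groups was not tested.

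The order of levels, in CPM per kilobase of exon, changed with HGF. With HGF at 1 h ERRFI1 was at 219 and RASD1 at 52.9, followed by SPRED2 at 16.5, SPRY4 at 14.1, SPRY2 at 12.8, SPRED1 at 11.9, LRIG3 at 7.64, LRIG1 at 4.55, SPRED3 at 0.643 and SPRY1 at 0.424. SPRY4 and SPRY2 overlapped in that order. With vehicle at 1 h ERRFI1 was at 31.1, followed by SPRED2 at 15.2, SPRED1 at 10.6, LRIG3 at 8.76, SPRY2 at 6.45, LRIG1 at 4.31, SPRY1 at 3.36, SPRY4 at 2.08, RASD1 at 1.79 and SPRED3 at 0.195. SPRY4 and RASD1 overlapped there, and RASD1 was the second lowest gene, whereas with HGF it was the second highest. At 4 h the order with HGF began with ERRFI1 at 121, SPRY2 at 22.8 and RASD1 at 21, the last pair overlapping, and that with vehicle began with ERRFI1 at 22.6, SPRED2 at 14.1 and LRIG3 at 12.8.

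More of the other negative regulators of this route rose than fell after HGF. Of 20 such genes, which include phosphatases that remove phosphate from ERK, CBL proteins, GTPase activators of RAS and SOCS proteins, 11 rose and 1 fell at 1 h of HGF, or 11 and 3 with library totals. That was 60% of the list called, against 21% of all genes tested. The list was chosen with earlier results of these data known, so its shares and medians cannot test whether it stands out. At 4 h 17 rose and 2 fell, or 14 and 4 with library totals, which was 95% of the list called, against 67.9% of all genes tested. The median log2 fold change of the list was 0.29 at 1 h and 0.89 at 4 h. Over all genes tested it was 0.00 to 2 decimals at 1 h and -0.06 at 4 h. With library totals these medians were 0.19 and 0.60 for the list, and -0.11 and -0.35 for all genes tested. The largest changes at 1 h were in ERK phosphatases. DUSP5 rose by 3.24 on the log2 scale (SE 0.05, adjusted p = 1.24e-29), DUSP6 by 2.02 (SE 0.04, adjusted p = 3.25e-26) and DUSP4 by 1.14 (SE 0.04, adjusted p = 6.77e-20). At 4 h of HGF DUSP5 rose by 2.39 (SE 0.05, adjusted p = 1.06e-26), DUSP4 was 4.01-fold higher (adjusted p = 3.90e-26) and DUSP7 rose by 1.99, while the largest change was that of SH2B3, an adaptor that damps cytokine receptor signalling, at 2.76. With MSP at 1 h 4 of the 20 rose, against 0.78% of all genes tested called higher. None of the 20 was called lower by edgeR or DESeq2 or at an unadjusted p under 0.05. Of all genes tested, edgeR called 0.0536% lower. DUSP5 rose by 0.72 (SE 0.05, adjusted p = 7.49e-12), DUSP6 by 0.62 (SE 0.04, adjusted p = 1.47e-11), and DUSP7 and DUSP4 by 0.26 and 0.25. At 4 h of MSP edgeR called 1 of the 20, DUSP5, against 1.07% of all genes tested. DUSP5 had a log2 fold change of 0.26 (adjusted p = 0.00622), and DESeq2 called 3 of the 20.

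The kinases, adaptors and receptors upstream of ERK moved less at 1 h. Of 21 such genes, 2 rose with HGF at 1 h, SHC1 by 0.38 (adjusted p = 9.11e-09) and HRAS by 0.19 (adjusted p = 0.0118). None was called lower by edgeR or DESeq2, and 1 was lower at an unadjusted p under 0.05. That was 9.52% of the list called, against 21% of all genes tested. This list, too, was chosen with earlier results of these data known. With library totals 1 rose and 4 fell, so the direction of this group depends on the scaling. At 4 h 11 rose and 7 fell, 85.7% of the list against 67.9% of all genes tested, or 7 and 10 with library totals, and the median log2 fold change was 0.30, or 0.01 with library totals. The adaptor gene SHC1 rose by 0.91, and MAP2K1, which encodes the ERK kinase MEK1, by 1.18 (SE 0.04, adjusted p = 2.29e-21). The receptor genes ERBB3 and ERBB2 fell, with log2 fold changes of -1.94 (SE 0.05, adjusted p = 2.80e-24) and -1.34 (SE 0.05, adjusted p = 7.34e-21). With MSP edgeR called none of the 21 at either time and neither did DESeq2, while 1 had an unadjusted p under 0.05 at 1 h and 7 had one at 4 h. Of all genes tested, edgeR called only 0.834% with MSP at 1 h and 1.07% at 4 h.

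**Figure D5:**
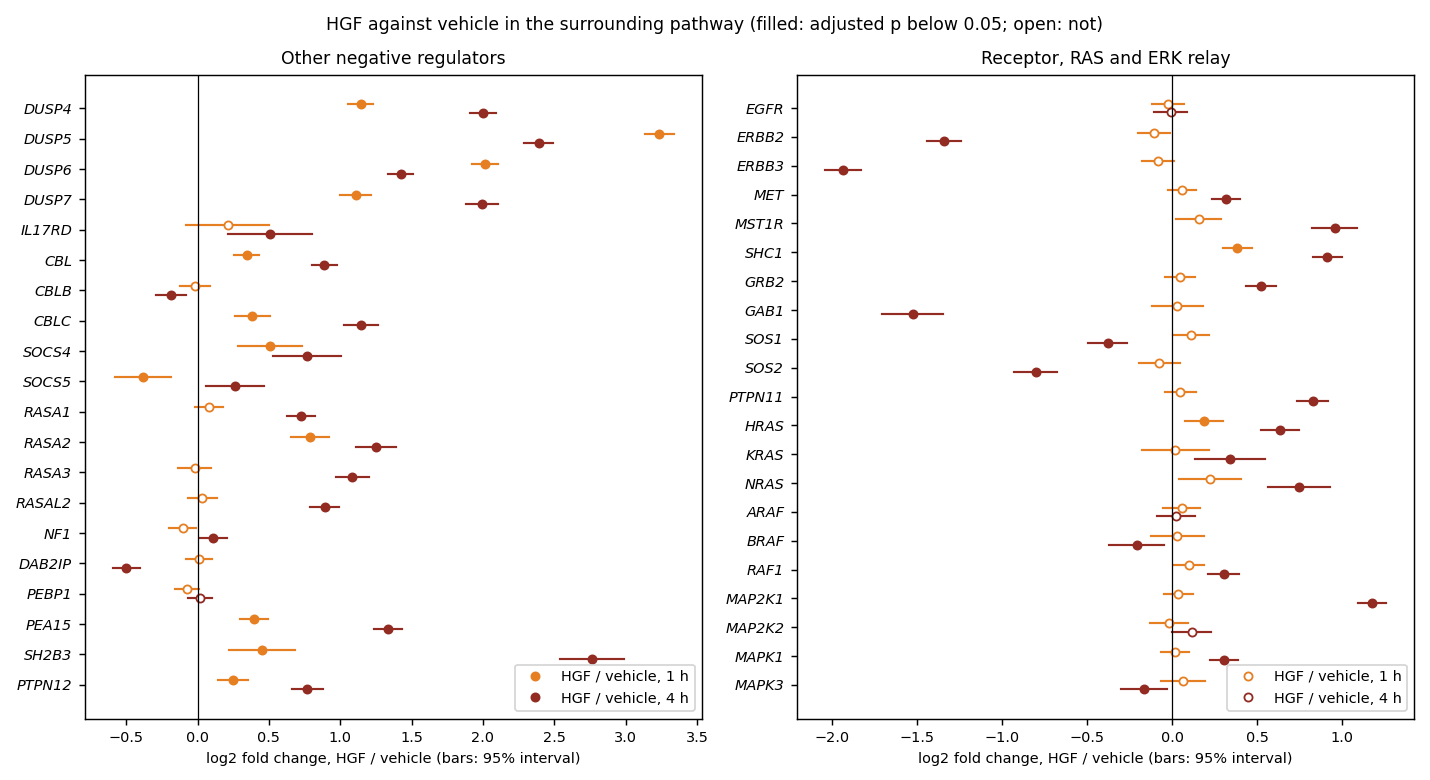
Log2 fold change of HGF against vehicle (horizontal axis) with its 95% interval at 1 h and 4 h for 20 other negative regulators on the left and 21 receptor, adaptor, RAS and kinase genes on the right, where filled points passed the adjusted p threshold of 0.05 and open points did not. At 1 h 11 negative regulators are filled to the right of 0, and only SHC1 and HRAS are filled on the right side.

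Across the 18 libraries, which share their groups and 1 experiment, the log2 CPM profiles of 3 members were closely correlated, though their changes differed in size. Pearson's r was 0.995 between SPRY4 and ERRFI1, 0.995 between ERRFI1 and RASD1 and 0.991 between SPRY4 and RASD1. SPRY1 and ERRFI1 had an r of -0.872. Among 12469 genes with a mean of at least 1 CPM and a symbol, ERRFI1 was most like MAFK (0.996), SPRY4 and VEGFA, and RASD1 most like ERRFI1, MAFK and FAM83G. SPRY4 was most like ERRFI1, KDM6B and MIDEAS. SPRY2 was most like TPM4 (0.994), ACTB and ACTG1. SPRY1 was most like TADA1 (0.981), SALL4 and ZKSCAN4. SPRED3 was most like AKIRIN1 (0.977), F3 and RARA. SPRED1 was most like HIPK3 (0.983), RNF138 and SGPP1, and SPRED2 most like KBTBD8 (0.964), PTPN12 and USP12. LRIG1 was most like POLQ (0.987), REEP4 and BRCA1. These values describe the profiles over the 6 groups.

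By GENCODE 29 on GRCh38, matched by identifier, SPRY1 (ENSG00000164056) lies at chr4:123396795-123403760, SPRY2 (ENSG00000136158) at chr13:80335976-80340951 and SPRY4 (ENSG00000187678) at chr5:142310427-142326455. SPRED1 (ENSG00000166068) lies at chr15:38252326-38357249, SPRED2 (ENSG00000198369) at chr2:65310851-65432637 and SPRED3 (ENSG00000188766) at chr19:38388421-38399587. ERRFI1 (ENSG00000116285) lies at chr1:8004404-8026308, LRIG1 (ENSG00000144749) at chr3:66378797-66501263, LRIG3 (ENSG00000139263) at chr12:58872149-58920522 and RASD1 (ENSG00000108551) at chr17:17494437-17496395. SPRY1, SPRED1 and SPRED3 are on the plus strand and the other members on the minus strand. Counts cover all exons of a gene.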

How the data were processed

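The deposited values are whole-number gene counts, which the authors made with STAR and with featureCounts (Subread), per the submitters' processing notes. Sources used here give no version, genome build, annotation or strand setting. Libraries came from a KAPA mRNA HyperPrep kit and each column combines the lanes of 1 library, per the labels. From these counts, R 4.3.3 and edgeR 4.0.16 gave the tests. filterByExpr (minimum count 10, minimum total 15) kept 16794 of 58395 rows and removed at most 0.0573% of a library's counts. The robust quasi-likelihood model used TMM factors and 1 mean per group over 18 libraries (residual df 12, biological coefficient of variation 5.23%), with Benjamini-Hochberg adjustment over all genes tested and a threshold of 0.05. SE is the absolute log2 fold change divided by the square root of F. Profiles used log2 CPM with a prior count of 2. No 2 replicates were within counting noise of each other. Chi-square per df was 2.87 to 18.3 over pairs of replicates, highest between MSP replicates 2 and 3 at 1 h. Alternatives were library totals, RLE factors, DESeq2 1.42.0, no filter, no robust estimation, only the groups compared, a replicate block and leaving out each library. The 10 genes and the gene lists were chosen with earlier results of these data known. The pathway genes named are the called genes that rank 1 to 3 by adjusted p in each list, and DUSP7 with MSP, SH2B3 and SHC1 at 4 h were named after their values were seen. The profile neighbours are the 3 genes with the highest Pearson's r. Those of LRIG3 are not reported here.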

Additional observations from a re-analysis of the deposited data

Results flagged for a closer look

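A ligand effect that differed between 4 h and 1 h was found for 11 pairs of gene and ligand, each by the interaction of ligand and time in edgeR's quasi-likelihood test. For HGF the difference of log2 fold changes, 4 h minus 1 h, was 2.28 for SPRY1, 1.11 for SPRED3, 0.59 for SPRY2, 0.28 for SPRED1, 0.20 for SPRED2, -0.40 for ERRFI1, -0.98 for LRIG1, -1.09 for RASD1 and -1.49 for LRIG3. For MSP it was -0.52 for ERRFI1 and -1.19 for RASD1. Groups of 3 libraries were not tested for single outlying values, and the effect of leaving out each library is given with the processing.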

How the results depend on the processing

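Of 1289 log2 fold changes of the 10 genes under alternatives, 1227 kept their direction and side of the threshold. Of the 755 that belong to a called comparison, 28 lost the call and none changed sign. The number of genes called of the 10 for MSP at 4 h, 1 by the model used, was 2 without the filter and 2 with only the groups compared, ERRFI1 being the addition (adjusted p = 0.0346 and 0.0348), and 0 to 1 when 1 library was left out. No other number of called members moved by over 1.5 times. Whether replicate numbers pair the libraries cannot be told from these counts. The 21 correlations of same-numbered deviations ran from -0.046 to 0.093. Among the 3 libraries of the other group, a library was most like its own number in 13 of 21. With a replicate block, 8 members were called for HGF at 1 h (SPRED2 added, adjusted p = 0.0269) and 8 for the change in the HGF effect (SPRED1 lost, adjusted p = 0.0572), and the other counts of called members were as without the block. Signs changed only for log2 values that passed no threshold. With library totals LRIG1 was at -0.024 for HGF against vehicle and -0.0598 for HGF against MSP, both at 1 h. Without the filter SPRED1 with MSP at 1 h was at 0.0016, and the change in the HGF effect on SPRY4 was 0.0005. When 1 library was left out, MSP at 1 h gave -0.113 to 0.0946 for SPRED1, -0.0213 to 0.0384 for SPRED2 and -0.0081 to 0.0994 for LRIG1, and MSP at 4 h gave -0.0289 to 0.404 for SPRED3. The change in the HGF effect on SPRY4 was then -0.112 to 0.0637, and that in the MSP effect -0.0219 to 0.0573 for LRIG3 and -0.182 to 0.0252 for SPRED1. Over all genes, the number called for MSP at 4 h was 179, against 310 by DESeq2, 354 without the filter, 402 with only the groups compared and 16 to 220 when 1 library was left out (16 without MSP replicate 2, 83 without MSP replicate 3, 32 without vehicle replicate 2 and 20 without vehicle replicate 3). For the change in the MSP effect it was 54, against 102 by DESeq2 and 148 without the filter. For MSP at 1 h it was 140, against 81 with only the groups compared. For vehicle over time it was 3513, against 2227 without vehicle replicate 1 at 4 h. The cause was not tested. The lowest summed counts of the 10 genes over 3 libraries were those of SPRED3 with vehicle at 4 h (86), with MSP at 4 h (114) and with vehicle at 1 h (140), and of SPRY1 with HGF at 1 h (187).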
